A study of Homo sapiens with 24 samples.

Results

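The genes described here are 10 components of macroautophagy, taken by symbol from RNA-seq tables that list 48162 genes: the cargo receptors SQSTM1 and NBR1, the ATG8 family members MAP1LC3B, GABARAPL1 and GABARAPL2, the conjugation genes ATG5 and ATG12, and the early-acting genes ULK1, BECN1 and WIPI1. Each symbol matched 1 row in every table, so no choice between repeated rows was needed. The study measured total RNA of established pancreas cell lines to ask how vesicles shed by pancreatic cancer cells act on non-malignant pancreas cells. The recipients were hTERT-HPNE (HPNE below), a pancreas line carrying an introduced telomerase gene, and HPDE-H6c7 (HPDE below), an immortalised line from pancreatic duct epithelium. Each line was grown in keratinocyte serum-free medium and kept for 24 h under 1 of 4 conditions: fresh serum-free medium (untreated), the residual medium remaining from vesicle isolation, or 1e10 extracellular vesicles (EV) per well. The vesicles came from PPCL-68 cells or from the pancreatic carcinoma line PANC-1. In all, 8 groups of 3 libraries were made, described as biological triplicates, and each recipient was a single immortalised line. Which cells conditioned the residual medium, and how vesicles were isolated, is not given in the sources used here.

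In macroautophagy, the ULK1 kinase complex and a lipid kinase complex containing BECN1 start a membrane at the endoplasmic reticulum, where WIPI1 binds the lipid that the kinase makes. ATG12 is joined to ATG5, and this conjugate helps to attach ATG8 proteins such as MAP1LC3B (LC3B), GABARAPL1 and GABARAPL2 to the growing membrane. SQSTM1 (p62) and NBR1 bind ubiquitin-marked cargo and ATG8 proteins, and are themselves degraded with the cargo. Transcripts of this set are known to be raised by stress-activated factors, among them ATF4, NRF2 and TFEB, and RNA levels say nothing of how much material the pathway degrades.

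Promoter sequences are shown for SQSTM1, MAP1LC3B and GABARAPL1, which had the 3 largest differences from residual medium after PPCL-68 EV in both lines. RefSeq (GRCh38.p14) gave 14 start sites for the 10 genes, and the 250 bases before each were searched on both strands for 4 motifs: CRE (TGACGTCA, bound by the ATF and CREB family), the E-box CACGTG (bound by TFEB among others), CARE (TGATGNAA, bound by ATF4 with C/EBP partners) and ARE (TGACNNNGC, bound by NRF2). Of the 14 windows, 2 held a match, and no match overlapped another motif. MAP1LC3B held an ARE match 46 to 38 bases before its start, on the gene's strand, and GABARAPL1 held a CRE match 30 to 23 bases before its start, also on the gene's strand. Among all 35116 windows of this length, 1.65% held CRE, 6.35% the E-box, 3.14% CARE and 10.9% ARE. The matches are given below in capitals and the other bases in lower case, 5′ to 3′ on the gene's strand. The SQSTM1 window shown is the most downstream of its 3, and held none of the 4 motifs.
MAP1LC3B promoter, GRCh38 chr16:87392086-87392335, plus strand: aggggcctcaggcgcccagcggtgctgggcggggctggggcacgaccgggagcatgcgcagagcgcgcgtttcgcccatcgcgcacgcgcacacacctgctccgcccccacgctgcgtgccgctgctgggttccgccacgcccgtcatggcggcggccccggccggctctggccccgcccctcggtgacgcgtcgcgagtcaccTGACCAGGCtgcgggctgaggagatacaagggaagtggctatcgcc
GABARAPL1 promoter, GRCh38 chr12:10212627-10212876, plus strand: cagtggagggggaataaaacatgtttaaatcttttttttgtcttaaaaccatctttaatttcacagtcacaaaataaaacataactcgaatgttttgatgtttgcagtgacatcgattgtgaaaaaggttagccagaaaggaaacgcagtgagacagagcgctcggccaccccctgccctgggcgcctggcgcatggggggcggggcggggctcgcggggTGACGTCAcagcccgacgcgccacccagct
SQSTM1 promoter, GRCh38 chr5:179820655-179820904, plus strand: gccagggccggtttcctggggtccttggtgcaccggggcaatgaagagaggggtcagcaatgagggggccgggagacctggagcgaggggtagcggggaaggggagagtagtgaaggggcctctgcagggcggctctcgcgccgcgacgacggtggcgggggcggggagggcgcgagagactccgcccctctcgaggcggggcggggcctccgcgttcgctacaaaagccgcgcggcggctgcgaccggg
A match says only that these letters occur in the window, and no binding was measured.

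Values are FPKM (a read count scaled to gene length and to the library total). Libraries held 29874928 to 46490312 reads assigned to genes in HPNE and 29209142 to 42206773 in HPDE, and the 10 genes had 105 to 39169 reads in each library. Markers were read against the line labels: all 7 epithelial markers (EPCAM, CDH1, KRT19, KRT7, KRT8, KRT18 and KRT5) had a mean of at least 1 FPKM in HPDE, and 2 of the 7 (KRT8 and KRT18) in HPNE, whereas all 7 mesenchymal markers reached 1 FPKM in HPNE and 3 of 7 (VIM, COL1A1 and TWIST1) in HPDE. The duct markers EPCAM and KRT19 were thus under 1 FPKM on average in HPNE, which the labels call a normal pancreas cell. Acinar, endocrine and endothelial markers stayed under 1 FPKM in both lines, as did the 4 leukocyte markers apart from CD14 in HPDE. In each HPNE group 1 library lay apart from the other two (replicate 3 of untreated and of residual medium, replicate 1 of each EV group), at 2.05 to 3.31 times the distance between the remaining pair, a ratio that ran from 1.08 to 1.24 in HPDE groups. Tests used limma on log2(FPKM + 1), and a gene is said to have risen or fallen only where its Benjamini-Hochberg adjusted p was under 0.05. Differences below are on that log2(FPKM + 1) scale, with standard errors. The p-values measure the spread between these libraries.

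**Figure D1:**
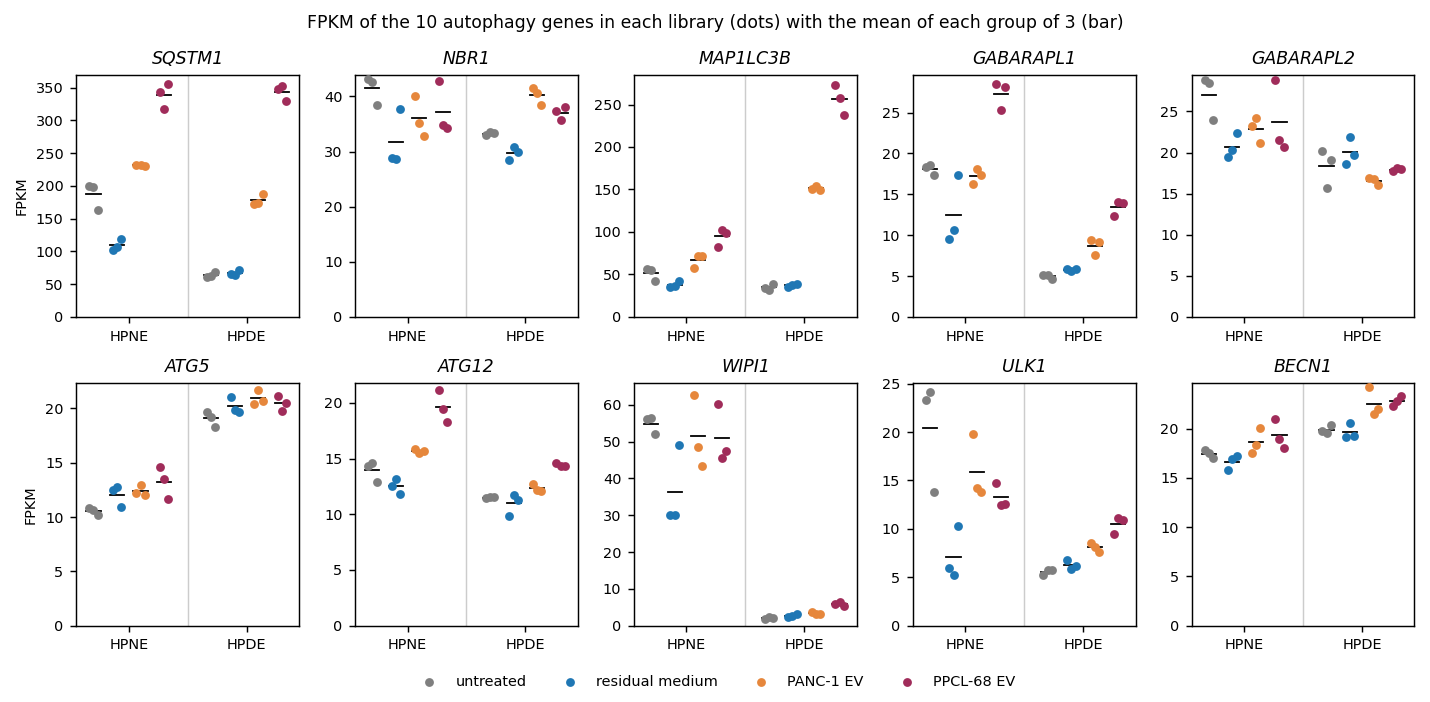
FPKM of the 10 genes in all 24 libraries (dots, coloured by treatment), with group means of 3 libraries (bars), HPNE on the left and HPDE on the right of each panel, and a separate linear axis starting at 0 for each gene. SQSTM1 and MAP1LC3B were highest after PPCL-68 EV in both lines, whereas GABARAPL2 and ATG5 varied little.

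SQSTM1 RNA rose after both kinds of vesicles in both lines, measured against residual medium. In HPDE it stood at 60.9, 61.8 and 68.9 FPKM in the untreated libraries, at 66.2, 63.9 and 70.9 in residual medium, at 172, 174 and 188 after PANC-1 EV and at 348, 353 and 330.0 after PPCL-68 EV. Both control groups overlapped, both vesicle groups lay wholly above them, and the PPCL-68 EV libraries lay wholly above the PANC-1 EV libraries. Against residual medium the rise was 1.40 ± 0.06 for PANC-1 EV (2.66-fold on mean FPKM, limma adjusted p = 8.88e-11) and 2.34 ± 0.06 for PPCL-68 EV (5.13-fold, limma adjusted p = 7.33e-13). In HPNE the corresponding values were 199, 199 and 164 FPKM untreated, 103, 106 and 119.6 in residual medium, 232, 232 and 231 after PANC-1 EV, and 343, 317 and 355 after PPCL-68 EV. None of these 4 groups overlapped, and residual medium was the lowest. The rise over residual medium was 1.08 ± 0.10 for PANC-1 EV (limma adjusted p = 0.0002) and 1.62 ± 0.10 for PPCL-68 EV (limma adjusted p = 8.76e-06). Over untreated HPNE the PPCL-68 EV libraries rose by 0.86 ± 0.10 (limma adjusted p = 0.000105), whereas the PANC-1 EV libraries exceeded them by 0.31 ± 0.10, at the threshold itself (limma adjusted p = 0.04996), with adjusted p from 0.00671 to 0.128 over the alternative settings. That call was lost on leaving out any 1 of the 6 libraries (differences from 0.22 to 0.36). SQSTM1 lies at hg19 chr5:179233388-179265078 on the plus strand (ENSG00000161011). In GENCODE 29, 22.0% of its exon bases also belong to other genes, and the library kit kept no strand. The opposite-strand neighbour MGAT4B ranged from 39.7 to 85.0 FPKM over the 24 libraries.

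NBR1, the other ubiquitin-binding receptor, moved much less. In HPDE its levels were 32.9, 33.5 and 33.3 FPKM untreated, 28.4, 30.8 and 29.8 in residual medium, 41.6, 40.6 and 38.4 after PANC-1 EV and 37.4, 35.7 and 38.2 after PPCL-68 EV. The vesicle groups lay above both controls without overlap, and the order of the sources was the opposite of that for SQSTM1. The rise over residual medium was 0.43 ± 0.04 (limma adjusted p = 1.45e-06) for PANC-1 EV and 0.31 ± 0.04 (limma adjusted p = 2.25e-05) for PPCL-68 EV. In HPNE NBR1 ranged from 28.6 to 43.2 FPKM, and its differences of 0.19 and 0.23 from residual medium did not pass (limma adjusted p = 0.29 and 0.165). Group means in HPDE spanned 1.35-fold for NBR1 and 5.39-fold for SQSTM1.

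MAP1LC3B, the ATG8 protein used most often to mark autophagosomes, rose after both kinds of vesicles in both lines. In HPDE it went from 34.0, 31.7 and 38.9 FPKM untreated, and 34.8, 37.9 and 39.0 in residual medium, to 150.3, 154 and 149.6 after PANC-1 EV and 273, 257 and 238 after PPCL-68 EV. The controls overlapped, and the vesicle groups lay apart from them and from each other. The rise over residual medium was 2.00 ± 0.07 for PANC-1 EV (4.06-fold, limma adjusted p = 1.75e-11) and 2.75 ± 0.07 for PPCL-68 EV (6.88-fold, limma adjusted p = 7.33e-13), the widest difference from residual medium of any of the 10 genes. HPNE libraries held 55.8, 55.3 and 42.4 FPKM untreated, 34.9, 36.8 and 42.2 in residual medium, 57.0, 71.4 and 72.1 after PANC-1 EV and 82.6, 103 and 99.2 after PPCL-68 EV. The rise over residual medium there was 0.80 ± 0.14 (limma adjusted p = 0.00304) and 1.30 ± 0.14 (limma adjusted p = 9.00e-05). MAP1LC3B lies at hg19 chr16:87417601-87438385 on the plus strand (ENSG00000140941). Its near-identical copy MAP1LC3B2 had 1 to 13 reads in the 12 untreated and residual-medium libraries, 4 to 20 after PANC-1 EV and 5 to 44 after PPCL-68 EV. Reads could be split between these copies, and the copy held at most 1.59 FPKM.

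GABARAPL1 rose in HPDE after both kinds of vesicles and in HPNE after PPCL-68 EV. The HPDE libraries held 5.08, 5.15 and 4.69 FPKM untreated, 5.84, 5.56 and 5.90 in residual medium, 9.42, 7.57 and 9.16 after PANC-1 EV and 12.3, 14.0 and 14.0 after PPCL-68 EV. No vesicle library overlapped a control library. The rise over residual medium was 0.52 ± 0.07 (limma adjusted p = 3.19e-05) and 1.09 ± 0.07 (limma adjusted p = 1.14e-08). In HPNE the values were 18.3, 18.6 and 17.4 FPKM untreated, 9.54, 10.6 and 17.3 in residual medium, 16.2, 18.1 and 17.3 after PANC-1 EV and 28.5, 25.3 and 28.1 after PPCL-68 EV. Residual-medium replicate 3, which lies apart, sat within the PANC-1 EV range, and the PPCL-68 EV libraries lay above all others. The difference from residual medium was 0.48 ± 0.16 after PANC-1 EV (limma adjusted p = 0.0541) and 1.11 ± 0.16 after PPCL-68 EV (limma adjusted p = 0.000555). GABARAPL1 lies at hg19 chr12:10365057-10375727 on the plus strand (ENSG00000139112).

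GABARAPL2 did not share in this rise. Its lowest and highest levels were 19.4 and 28.8 FPKM in HPNE, and 15.7 and 21.8 FPKM in HPDE. After PANC-1 EV in HPDE it fell by 0.26 ± 0.08 on the log2 scale (limma adjusted p = 0.00775), with 16.9, 16.8 and 16.0 FPKM against 18.6, 21.8 and 19.7 in residual medium. After PPCL-68 EV the difference in HPDE was -0.15 ± 0.08 (limma adjusted p = 0.0911). In HPNE the differences of 0.14 and 0.17 from residual medium did not pass (limma adjusted p = 0.436 and 0.292).

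Most of the ATG8 family RNA counted in HPDE, where GABARAP is listed near 0, was MAP1LC3B. Summed over the 6 family genes listed (MAP1LC3A, MAP1LC3B, MAP1LC3C, GABARAP, GABARAPL1 and GABARAPL2), HPDE held 59.1 ± 5.13 FPKM untreated, 64.5 ± 3.26 in residual medium, 178 ± 1.60 after PANC-1 EV and 289 ± 16.5 after PPCL-68 EV (mean ± SD, n = 3). MAP1LC3B made up 57.2 to 58.6% of that sum in the residual-medium libraries, 84.4 to 85.9% after PANC-1 EV and 87.7 to 89.7% after PPCL-68 EV. In HPNE the sum was 112 ± 13.6 FPKM untreated, 82.8 ± 12.003 in residual medium, 119.5 ± 10.3 after PANC-1 EV and 160.4 ± 3.27 after PPCL-68 EV, and the MAP1LC3B share was 43.8 to 47.7% in residual medium and 52.7 to 63.4% after PPCL-68 EV. MAP1LC3A contributed 9.19 to 17.3 FPKM in HPNE libraries, against 0.716 to 1.40 in those of HPDE. GABARAP, a family member that most cells express, is listed at 0.0525 to 0.781 FPKM, and the table holds a second gene over most of its span on the same strand, listed at 0 throughout. GABARAP is not interpreted here and the sums may lack its reads.

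**Figure D2:**
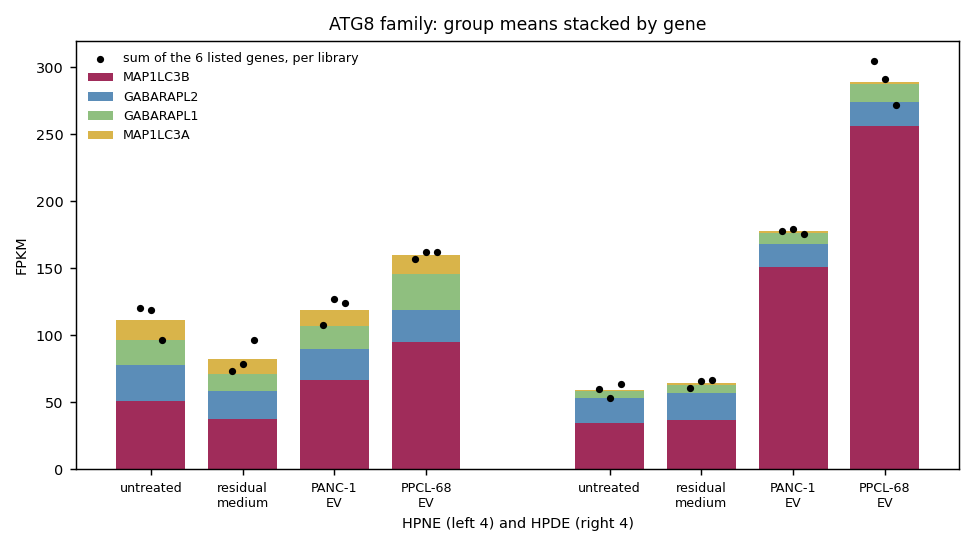
Group means of the ATG8 family genes in FPKM, stacked by gene, with the summed value of each library as a dot; HPNE groups are on the left and HPDE groups on the right. The 4 genes in the key make up the visible height, and the MAP1LC3B block grows from 37.2 FPKM in residual medium to 256 FPKM after PPCL-68 EV in HPDE.

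The conjugation genes differed from residual medium by at most 0.61. ATG12 stood in HPNE at 14.3, 14.6 and 12.9 FPKM untreated, 12.6, 13.2 and 11.8 in residual medium, 15.9, 15.5 and 15.7 after PANC-1 EV and 21.2, 19.4 and 18.3 after PPCL-68 EV. Both vesicle groups lay above residual medium, by 0.31 ± 0.08 (limma adjusted p = 0.0178) and 0.61 ± 0.08 (limma adjusted p = 0.000265). In HPDE ATG12 rose by 0.16 ± 0.06 after PANC-1 EV (limma adjusted p = 0.0235) and by 0.37 ± 0.06 after PPCL-68 EV (limma adjusted p = 3.95e-05), with 9.86 to 11.8 FPKM in residual medium, 12.1 to 12.7 after PANC-1 EV and 14.3 to 14.6 after PPCL-68 EV. For PANC-1 EV the HPNE call was lost without residual-medium replicate 1 (0.31), and the HPDE call without replicate 1 of either group (0.09 and 0.14). Its partner ATG5 ranged from 18.3 to 21.7 FPKM in HPDE and from 10.2 to 14.6 in HPNE, and passed the test against residual medium in none of these 4 comparisons (limma adjusted p from 0.29 to 0.768, and each unadjusted p was above 0.05).

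ULK1, WIPI1 and BECN1 act at the start of the pathway. In HPDE ULK1, the initiating kinase, rose from 6.78, 5.90 and 6.17 FPKM in residual medium to 8.56, 8.16 and 7.63 after PANC-1 EV and 9.42, 11.1 and 10.9 after PPCL-68 EV. These groups did not overlap, and the rise was 0.32 ± 0.07 (limma adjusted p = 0.00104) and 0.66 ± 0.07 (limma adjusted p = 1.23e-06). HPNE showed another order: ULK1 was highest untreated at 23.3, 24.1 and 13.9 FPKM, lowest in residual medium at 5.91, 5.24 and 10.3, and between them at 19.8, 14.2 and 13.8 after PANC-1 EV and 14.8, 12.4 and 12.6 after PPCL-68 EV. Against residual medium ULK1 rose in HPNE by 1.09 ± 0.25 (limma adjusted p = 0.0104) and 0.86 ± 0.25 (limma adjusted p = 0.0176). The second call was lost without residual-medium replicate 1 or 2 or PPCL-68 EV replicate 1 (0.69 to 0.78). Against untreated HPNE the same libraries differed by -0.32 and -0.55, and neither passed (limma adjusted p = 0.368 and 0.0921).

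WIPI1, which binds the early membrane, was a low-level transcript in HPDE, at 1.85, 2.34 and 2.18 FPKM untreated, 2.38, 2.58 and 3.13 in residual medium, 3.67, 3.28 and 3.12 after PANC-1 EV and 5.90, 6.41 and 5.25 after PPCL-68 EV. Residual medium and PANC-1 EV overlapped by a narrow margin, and PPCL-68 EV lay above all other HPDE libraries. The rise over residual medium was 0.24 ± 0.09 (limma adjusted p = 0.0359) and 0.89 ± 0.09 (limma adjusted p = 9.27e-07). The first of these was lost without PANC-1 EV replicate 1 or 2 or residual-medium replicate 1 or 2 (0.18 to 0.25). HPNE held far more WIPI1, from 30.0 to 62.8 FPKM, and its differences of 0.51 and 0.50 from residual medium did not pass (limma adjusted p = 0.0727 and 0.057). Residual-medium replicate 3, which lies apart, held 49.2 FPKM. Without it both differences passed, at 0.74 and 0.73 (limma adjusted p = 0.00381 and 0.00295, within 1.26e-05 to 0.237 and 7.17e-06 to 0.193 over the alternative settings). WIPI1 lies within the span of PRKAR1A on the opposite strand, a gene with 66.9 to 127 FPKM that is not among those sharing its exon bases. In GENCODE 29, 28.1% of WIPI1 exon bases are shared with ARSG, at 0.415 to 6.21 FPKM, and AC007780.1. BECN1 rose slightly in HPDE, by 0.18 ± 0.05 (limma adjusted p = 0.00454) and 0.20 ± 0.05 (limma adjusted p = 0.00198), within a range of 19.2 to 24.2 FPKM over that line. In HPNE its differences of 0.16 and 0.20 did not pass (limma adjusted p = 0.162 and 0.0596). Of BECN1 exon bases, 17.1% are shared with neighbours that include PSME3, at 41.7 to 113 FPKM.

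Counted together against residual medium, 4 of the 10 genes rose and none fell after PANC-1 EV in HPNE, where 13.9% of 11503 genes tested rose and 10.3% fell. After PPCL-68 EV in HPNE 5 rose and none fell, with 20.3% rising and 19.7% falling over all genes. HPDE counts were higher, at 8 up and 1 down (GABARAPL2) after PANC-1 EV, where 28.2% of 12223 genes rose and 35.1% fell, and at 8 up and none down after PPCL-68 EV, where 31.3% rose and 36.4% fell. The 10 genes had median differences of 0.39 (PANC-1 EV) and 0.56 (PPCL-68 EV) in HPNE, and of 0.28 and 0.51 in HPDE, whereas the medians over all genes tested ran from -0.04 to 0.02. Both vesicle comparisons of a line share their 3 residual-medium libraries, so their counts are not independent. Without the 4 HPNE libraries that lie apart, 9 of the 10 genes rose after PANC-1 EV and 8 after PPCL-68 EV in HPNE. Over all genes in that setting, 3220 rose and 3553 fell after PANC-1 EV, and 3237 rose and 4294 fell after PPCL-68 EV. Leaving those libraries out reduces the spread by construction. By an unadjusted p under 0.05, 6 and 7 of the 10 genes rose in HPNE and none fell. Voom on the recovered reads gave 5 and 5 up and none down. Over all genes voom passed 2924 and 4602, higher and lower together, and the share at an unadjusted p was not counted. In HPDE after PPCL-68 EV, none of the 10 genes fell by the unadjusted p or by voom. Without residual-medium replicate 3 alone, the HPNE counts were 7 and 8. Over all genes 1989 rose and 2455 fell after PANC-1 EV in that setting, and the all-gene counts after PPCL-68 EV are not given here.

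**Figure D3:**
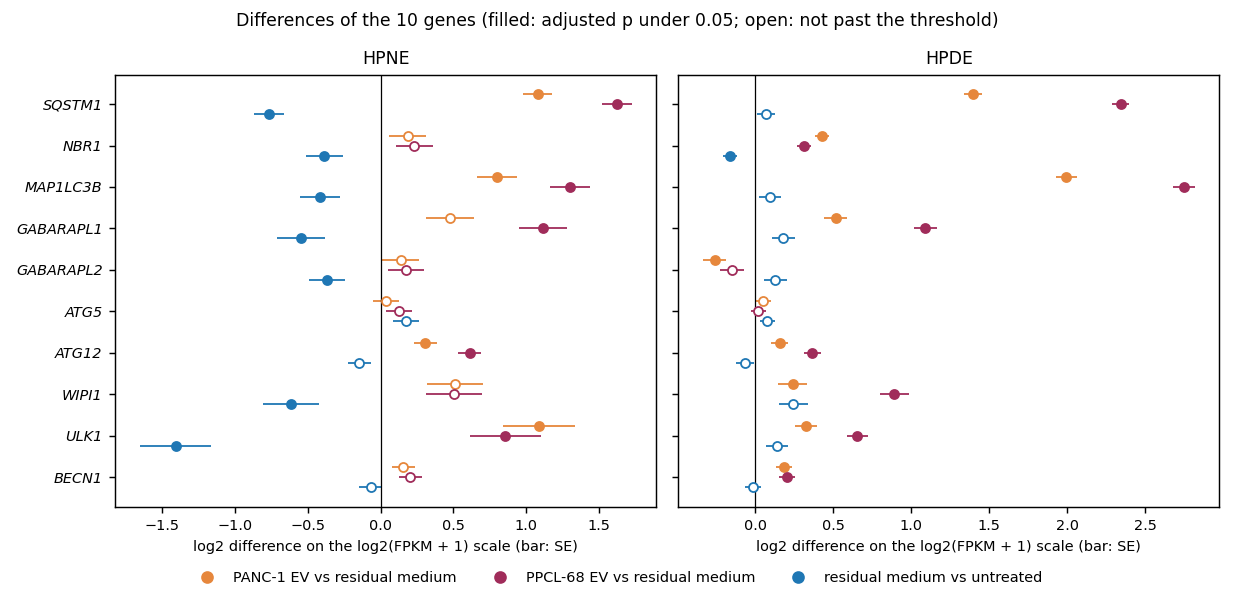
Differences of the 10 genes on the log2(FPKM + 1) scale with standard errors, HPNE left and HPDE right, for each vesicle source against residual medium and for residual medium against untreated cells; filled symbols passed the adjusted p threshold of 0.05. In HPNE 7 of the residual-medium points are filled and below 0, and in HPDE 1 is (NBR1).

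Residual medium itself differed from fresh medium in HPNE. There 7 of the 10 genes fell and none rose (25.2% of all genes tested fell and 18.7% rose): ULK1 by 1.41 ± 0.25, SQSTM1 by 0.77 ± 0.10, WIPI1 by 0.62 ± 0.19, GABARAPL1 by 0.55 ± 0.16, MAP1LC3B by 0.41 ± 0.14, NBR1 by 0.39 ± 0.13 and GABARAPL2 by 0.37 ± 0.12 (written as the size of each fall, limma adjusted p from 0.000374 to 0.0332). In HPDE NBR1 alone fell, with a difference of -0.16 ± 0.04 (limma adjusted p = 0.0229, 1 of 10 genes against 10.1% of all genes falling and 9.93% rising). The HPNE count rests partly on scaling: division by size factors left 2 of these falls, SQSTM1 and ULK1, added a rise of ATG5 (0.29), and moved the median of all genes from -0.05 to 0.06. It also rests on single libraries, with 2 genes passing when untreated replicate 1 or 2, or residual-medium replicate 1 or 2, was left out. Over all genes, 3000 to 3180 passed in those settings in place of 5052. The NBR1 call in HPDE was lost without any 1 of the 6 libraries except residual-medium replicate 2 (-0.17 to -0.13). None of the 10 genes rose in HPNE residual medium by an unadjusted p under 0.05 or by voom. The sum of 8 proliferation genes (MKI67, TOP2A, CCNB1, CDK1, BUB1, AURKA, PLK1 and KIF20A) in HPNE was 44.02, 44.36 and 104 FPKM untreated and 321, 328 and 79.3 in residual medium. It was thus higher in residual-medium replicates 1 and 2, whereas replicate 3, which lies apart in both groups, was lower there, and the groups overlapped. The same sum was 56.5 to 73.1 FPKM after PANC-1 EV and 29.5 to 52.0 after PPCL-68 EV. In HPDE it was 459 to 486 FPKM untreated, 425 to 452 in residual medium, 269 to 273 after PANC-1 EV and 210 to 230 after PPCL-68 EV. All 8 proliferation genes had a mean of at least 1 FPKM in both lines, and their part in the differences above was not tested. The 7 mesenchymal markers in HPNE summed to 7131 to 9109 FPKM untreated, 3897 to 6916 in residual medium, 4610 to 6785 after PANC-1 EV and 2692 to 3615 after PPCL-68 EV. The 7 epithelial markers in HPDE summed to 4519 to 4791 FPKM untreated, 4012 to 4541 in residual medium, 2363 to 2683 after PANC-1 EV and 1743 to 1801 after PPCL-68 EV. Their part was not tested either, and in bulk RNA fewer cells of a kind cannot be told apart from less RNA per cell.

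The vesicle groups were also measured against fresh medium. After PANC-1 EV in HPNE SQSTM1 alone rose and none fell (9.61% of all genes rose and 11.5% fell), and after PPCL-68 EV 5 rose and none fell (18.7% rose and 23.8% fell). Those 5 were MAP1LC3B at 0.88 ± 0.14, SQSTM1 at 0.86 ± 0.10, GABARAPL1 at 0.56 ± 0.16, ATG12 at 0.47 ± 0.08 and ATG5 at 0.30 ± 0.09 (limma adjusted p from 0.000105 to 0.0196). The ATG5 call was lost without untreated replicate 2 or 3 or PPCL-68 EV replicate 1 or 2 (0.23 to 0.30), and the GABARAPL1 call without PPCL-68 EV replicate 3 (0.54). By an unadjusted p under 0.05, ULK1 was below untreated after PPCL-68 EV, and voom gave no rise after PANC-1 EV. Without the 4 libraries apart, the HPNE counts against fresh medium were 3 up and 4 down after PANC-1 EV and 5 up and 4 down after PPCL-68 EV, with ULK1, NBR1, GABARAPL2 and WIPI1 on the falling side each time. Over all genes in that setting, 3379 rose and 3813 fell after PANC-1 EV, and 3559 rose and 4417 fell after PPCL-68 EV. The main fit tested 11503 genes. In HPDE 8 genes rose and none fell after each source (26.3% and 30.1% of all genes rose, 34.4% and 36.1% fell). After PANC-1 EV the ATG5 call was lost without replicate 2 or 3 of either group (0.10 to 0.14). None of the 10 genes fell there by an unadjusted p under 0.05 or by voom. MAP1LC3B rose by 2.09 ± 0.07 and 2.85 ± 0.07 over untreated HPDE, and SQSTM1 by 1.47 ± 0.06 and 2.41 ± 0.06 (limma adjusted p at most 3.50e-11).

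The vesicle sources were compared directly within each line, as the same number of vesicles per well was given. In HPDE 6 genes were lower after PANC-1 EV than after PPCL-68 EV and 1 was higher (24.9% and 25.2% of all genes). The lower genes were SQSTM1 (-0.95 ± 0.06), MAP1LC3B (-0.75 ± 0.07), WIPI1 (-0.65 ± 0.09), GABARAPL1 (-0.57 ± 0.07), ULK1 (-0.33 ± 0.07) and ATG12 (-0.21 ± 0.06), with limma adjusted p from 1.50e-08 to 0.00624. NBR1 was the higher one, by 0.11 ± 0.04 (limma adjusted p = 0.047). In HPNE 3 were lower and none higher (2.25% and 3.22% of all genes). None of the 10 genes was higher there by an unadjusted p under 0.05 or by voom. The lower ones in HPNE were GABARAPL1 (-0.63 ± 0.16), SQSTM1 (-0.54 ± 0.10) and ATG12 (-0.31 ± 0.08), with limma adjusted p from 0.0148 to 0.0481. Same-numbered libraries of these HPNE groups deviated alike, but the labels state no pairing and replicate 1 lies apart in both groups. A block for the replicate number ended the GABARAPL1 call (limma adjusted p = 0.0611, within 0.000222 to 0.144 over the alternative settings). MAP1LC3B differed by -0.50 ± 0.14 in HPNE and did not pass (limma adjusted p = 0.0592). In HPNE the calls of GABARAPL1 and ATG12 were lost without any 1 of the 6 libraries (-0.68 to -0.59, and -0.35 to -0.25), and that of SQSTM1 without PANC-1 EV replicate 2 or PPCL-68 EV replicate 3 (-0.55 and -0.51). The NBR1 call in HPDE was lost without replicate 1 or 2 of either group (0.09 to 0.12).

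The response of MAP1LC3B was larger in HPDE than in HPNE for both sources. The line difference, tested as an interaction over all 24 libraries, was 1.20 ± 0.16 for PANC-1 EV (limma adjusted p = 3.36e-05) and 1.45 ± 0.16 for PPCL-68 EV (limma adjusted p = 2.06e-06). SQSTM1 also differed, by 0.32 ± 0.11 for PANC-1 EV (limma adjusted p = 0.0491) and 0.72 ± 0.11 for PPCL-68 EV (limma adjusted p = 9.61e-05). ULK1 was the reverse for PANC-1 EV, with a smaller response in HPDE (-0.76 ± 0.27, limma adjusted p = 0.0499). These were 3 of 10 genes for PANC-1 EV (2 higher and 1 lower in HPDE, against 8.65% and 12.5% of all genes) and 2 of 10 for PPCL-68 EV (both higher, against 12.1% higher and 13.6% lower). For residual medium against fresh medium, 6 of 10 differed between the lines, all with a fall in HPNE and a small difference of the opposite sign in HPDE that did not pass (0.07 to 0.24 there, 21.0% of all genes higher and 17.1% lower), led by ULK1 (1.55 ± 0.27) and WIPI1 (0.86 ± 0.22). The calls of SQSTM1 and ULK1 for PANC-1 EV did not pass with the replicate block or by voom, and each was lost without 10 of the 12 libraries taken singly (0.25 to 0.34 for SQSTM1, -0.83 to -0.60 for ULK1).

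**Figure D4:**
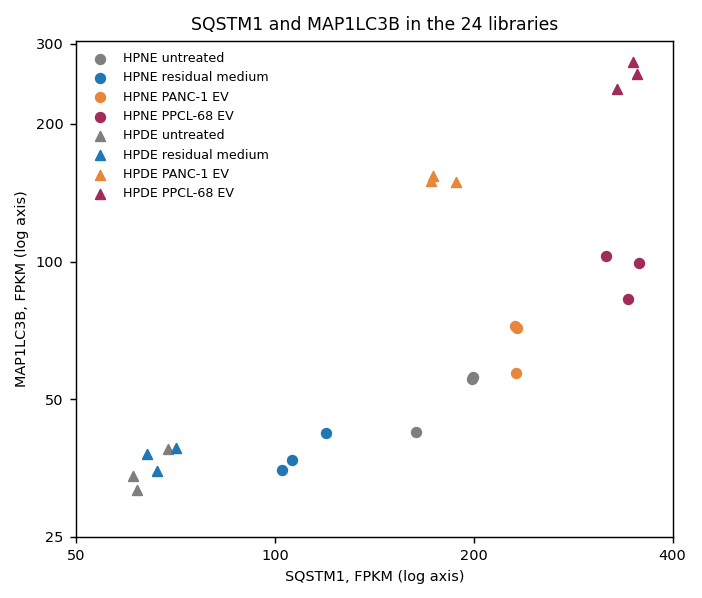
SQSTM1 against MAP1LC3B in the 24 libraries, both in FPKM on log axes (circles HPNE, triangles HPDE, colours for treatment). At 172 to 188 FPKM of SQSTM1 the HPDE PANC-1 EV libraries held 149.6 to 154 FPKM of MAP1LC3B, whereas the HPNE libraries rose along a lower path to at most 103 FPKM.

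Before any vesicles the lines already differed in all 10 genes (56.0% of all genes were higher in HPDE and 27.7% lower). Untreated HPDE had less WIPI1 (-4.17 ± 0.16), GABARAPL1 (-1.68 ± 0.13), ULK1 (-1.66 ± 0.19), SQSTM1 (-1.53 ± 0.08), GABARAPL2 (-0.54 ± 0.11), MAP1LC3B (-0.54 ± 0.11), NBR1 (-0.31 ± 0.10) and ATG12 (-0.26 ± 0.06) than untreated HPNE, with limma adjusted p at most 0.00576. ATG5 was higher in HPDE, by 0.80 ± 0.07 (limma adjusted p = 9.98e-10). BECN1 was higher by 0.18 ± 0.06 (limma adjusted p = 0.0123) as deposited and lower by size factors, where its difference was -0.17. That scaling moved the median of all genes from 0.38 to 0.07, and the other 9 genes kept their direction under it. After PPCL-68 EV the lines met for SQSTM1, with 317 to 355 FPKM in HPNE and 330.0 to 353 in HPDE, although the untreated ranges, 164 to 199 and 60.9 to 68.9, did not overlap.

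The libraries were also searched for genes whose profile most resembled these. Likeness was Pearson r of log2(FPKM + 1) over the 24 libraries after subtracting each line's mean, among 9777 protein-coding genes, and it is a description since libraries of a group share their treatment. SQSTM1 was most like GCC1 (r = 0.976), MAP1LC3B (0.974), PNMA1 (0.968), MTMR14 (0.966) and ZDBF2 (0.964). Genes most like MAP1LC3B included UPP1 (r = 0.976), SQSTM1 (0.974), SKIL (0.963) and FAM120AOS (0.961). GABARAPL1 was most like GCC1 (r = 0.958), SERINC1, MIDN, RPS6KA2 and CHMP1B (0.942), and WIPI1 was most like TOM1 (r = 0.940), ERO1LB, RPS6KA2, TPT1 and RPL12 (0.914). Among the 10 genes, GABARAPL2 went with SQSTM1 least (r = -0.06, made of 0.33 in HPNE and -0.41 in HPDE), and ATG5 next (0.34).

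A further 57 autophagy genes, listed by role, were read the same way, of which 52 passed the expression filter in HPNE and 53 in HPDE. Against residual medium 15 rose and 2 fell after PANC-1 EV in HPNE, 21 rose and 3 fell after PPCL-68 EV in HPNE, 25 rose and 14 fell after PANC-1 EV in HPDE, and 24 rose and 12 fell after PPCL-68 EV in HPDE. Without residual-medium replicate 1 or 2 the first count of genes passing was 11 and 10 in place of 17. The number passing over all genes was then 1348 and 1388 in place of 2784. Without the 4 libraries apart the HPNE counts were 26 up and 10 down, then 26 up and 12 down. Over all genes that setting gave 3220 up and 3553 down, then 3237 up and 4294 down. In the main fit, the shares of all genes tested that rose and fell were 13.9% and 10.3%, 20.3% and 19.7%, 28.2% and 35.1%, and 31.3% and 36.4%. They follow the order of the 4 comparisons above. The counts of autophagy genes above include 11 regulators. Of these, 5 and 7 rose in HPNE and 9 and 8 in HPDE, with 1 falling each time, so regulators made up a large part of the rises. TRIB3, SESN2 and DDIT3 had the largest rises in all 4 comparisons. TRIB3, a stress-induced pseudokinase, went in HPDE from 114, 115 and 113 FPKM in residual medium to 403, 446 and 443 after PANC-1 EV (1.91 ± 0.05, limma adjusted p = 1.78e-12). SESN2, a sestrin that restrains mTORC1, went from 12.6, 13.2 and 13.5 FPKM to 57.9, 59.0 and 56.1 (2.06 ± 0.05, limma adjusted p = 1.78e-12). DDIT3, which encodes the stress factor CHOP, stood at 6.03, 7.16 and 8.99 FPKM and then at 50.5, 52.0 and 53.2 (2.67 ± 0.09, limma adjusted p = 1.75e-11).

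The rest of the lipidation machinery was counted in the same way. Of 8 further conjugation genes (ATG3, ATG4A, ATG4B, ATG4C, ATG4D, ATG7, ATG10 and ATG16L1), none rose or fell after PANC-1 EV in HPNE by limma (none at an unadjusted p under 0.05 or by voom either), 1 rose and 1 fell after PPCL-68 EV in HPNE, 2 rose and 4 fell after PANC-1 EV in HPDE, and none rose and 2 fell after PPCL-68 EV in HPDE (again with no rise by the unadjusted p or voom). The median differences of these 8 were -0.08, -0.05, -0.15 and 0.05. In HPDE after PANC-1 EV, 28.2% of all genes rose and 35.1% fell, so that the 2 and 4 of 8 lay near the shares over all genes. Of 10 other receptors tested, 3 rose and 1 fell after PANC-1 EV in HPNE, 5 rose and 1 fell after PPCL-68 EV in HPNE, 5 rose and 2 fell after PANC-1 EV in HPDE, and 4 rose and 3 fell after PPCL-68 EV in HPDE, with medians of 0.20, 0.37, 0.09 and 0.08. Over all genes, 13.9% rose and 10.3% fell, 20.3% and 19.7%, 28.2% and 35.1%, and 31.3% and 36.4%, in the same order. The last receptor counts, 4 and 3 of 10, lay near those shares. The largest fall among receptors was that of BNIP3, a mitophagy receptor induced by low oxygen, at -1.23 and -1.34 in HPNE and -0.49 and -0.60 in HPDE (limma adjusted p at most 0.00103). BNIP3 held 181, 181 and 221 FPKM in HPNE residual medium against 71.4 to 81.1 untreated and 66.5 to 104.5 after vesicles, so residual medium was the group that stood apart. In HPDE it held 77.6 to 79.9 FPKM in residual medium and 52.2 to 58.1 untreated. TFEB (-0.57) and ATG4A (-0.54) fell in HPNE after PPCL-68 EV, VAMP8 (-0.56) and KEAP1 (-0.53) in HPDE after PANC-1 EV, ATG4C (-0.48) and TMEM41B (-0.45) in HPDE after PPCL-68 EV, and FOXO3 (-0.27) in HPNE after PANC-1 EV (limma adjusted p at most 0.0494). KEAP1 is the adaptor that keeps NRF2 low, VAMP8 acts in fusion with the lysosome, and TMEM41B moves lipids across the membrane. Between the vesicle sources in HPNE, 1 of the 52 was higher after PANC-1 EV and 3 were lower, against 3.22% and 2.25% of all genes. Of these 4 calls, 2 remained with the replicate block. The count was 0 without the filter, 0 to 1 on leaving out 1 library, and 16 without the 4 libraries apart.

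**Figure D5:**
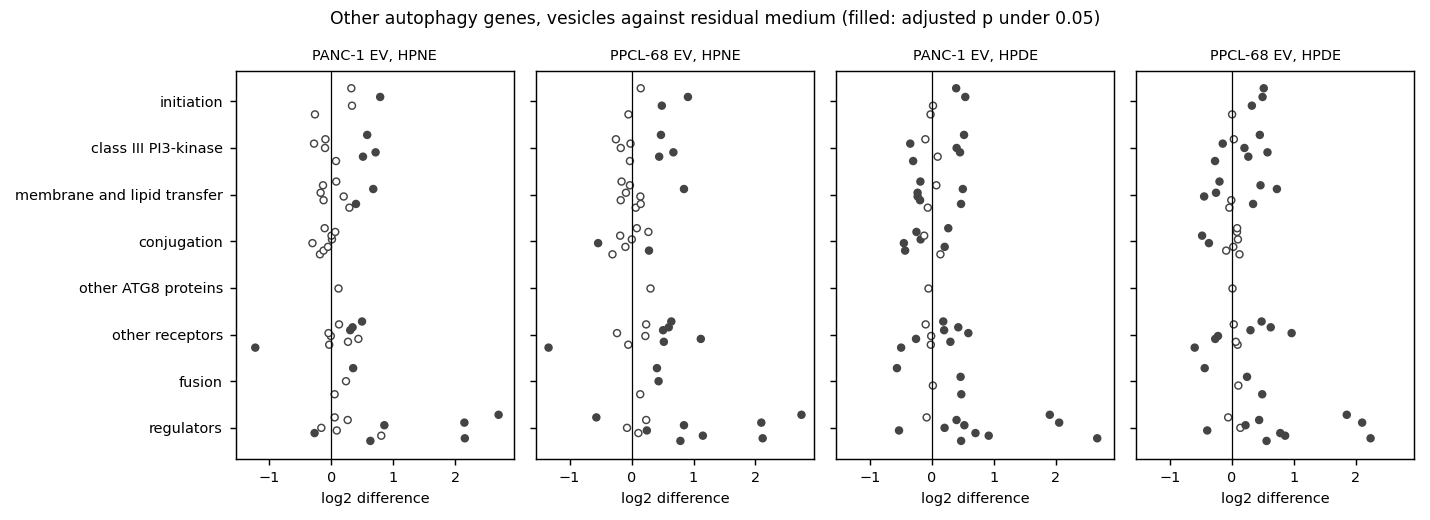
Differences of the other autophagy genes, by role, for each vesicle source against residual medium in each line (log2(FPKM + 1) scale, 1 dot per gene; filled symbols passed the adjusted p threshold of 0.05). The 3 dots near or above 2 among the regulators are TRIB3, SESN2 and DDIT3, and conjugation genes lie between -0.54 (ATG4A, HPNE, PPCL-68 EV) and 0.28 (ATG16L1, the same comparison).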

How the data were processed

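RNA of 24 libraries was deposited as FPKM, 1 table per library with 48162 genes and their lengths, per the file headers. The submitters' processing notes name CASAVA, STAR, HTSeq, DESeq2 and the build hg19 without their roles, and the library kit was non-directional per the labels' protocols. Each FPKM value was a whole multiple of what 1 read is worth (100% of values within 0.01 reads in each library), which gave the read totals, and read numbers cover counting error only.

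Tests used limma 3.58.1 in R 4.3.3 (lmFit and eBayes with trend, two-sided) on log2(FPKM + 1), with genes at a mean of at least 1 FPKM, Benjamini-Hochberg adjustment over all genes tested and a threshold of 0.05. The 12 libraries of a line were fitted together (8 residual degrees of freedom), and all 24 for differences between lines (16). Scripts were tested on simulated data. Tables and figures used Python 3.11.15, numpy 2.4.6, pandas 2.3.3 and matplotlib 3.10.9.

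The 10 genes, the 57 other autophagy genes (3 matched by gene ID) and the markers (36 of 37 found) were chosen with earlier results of these data known, as were the 4 HPNE libraries left out in 1 alternative. Beside the 10 genes, the text names up to 3 rises and 3 falls per vesicle comparison with residual medium, the largest past the threshold without overlap between groups, and the genes most alike in profile, of which 1 is not reported here. Alternatives were a pseudocount of 0.1, no filter, size factors computed on FPKM, a replicate block, voom on the recovered reads, a fit of only the 6 libraries compared, and leaving libraries out. Deviations of same-numbered libraries correlated positively for every number only for PANC-1 EV against PPCL-68 EV in HPNE (0.565, 0.292 and 0.500). The labels state no pairing, and replicate 1 lies apart in both of those groups. Promoter windows came from RefSeq (GRCh38.p14) and exon overlaps from GENCODE 29.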

Additional observations from a re-analysis of the deposited data

Results flagged for a closer look

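Several responses differed between the 2 cell lines by a test of the difference itself, an interaction term in limma over 24 libraries. Each value is the response in HPDE minus that in HPNE, on the log2(FPKM + 1) scale. For PANC-1 EV against residual medium, MAP1LC3B differed by 1.20 (adjusted p = 3.36e-05), SQSTM1 by 0.32 (adjusted p = 0.0491) and ULK1 by -0.76 (adjusted p = 0.0499). The SQSTM1 and ULK1 differences did not pass with a pseudocount of 0.1, without the filter, with the replicate block or by voom. Over all alternatives their adjusted p ran from 0.0217 to 0.115 for SQSTM1 and from 1.99e-06 to 0.138 for ULK1. For PPCL-68 EV against residual medium, MAP1LC3B differed by 1.45 (adjusted p = 2.06e-06) and SQSTM1 by 0.72 (adjusted p = 9.61e-05). These vesicle comparisons share their residual-medium libraries with each other.

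For residual medium against untreated cells, ULK1 differed by 1.55 (adjusted p = 0.000293), WIPI1 by 0.86 (adjusted p = 0.00589), SQSTM1 by 0.84 (adjusted p = 2.45e-05), GABARAPL1 by 0.73 (adjusted p = 0.00581), MAP1LC3B by 0.51 (adjusted p = 0.0182) and GABARAPL2 by 0.50 (adjusted p = 0.0151). All 6 are positive, since the fall seen in HPNE was not seen in HPDE. The MAP1LC3B difference no longer passed without HPNE untreated replicate 1 or 2, HPNE residual-medium replicate 1, or HPDE untreated replicate 2 (0.44 to 0.45). It also did not pass with size factors (0.43, adjusted p = 0.0632, within 4.33e-06 to 0.0632 over the alternatives), nor did that of WIPI1 by voom (0.96, adjusted p = 0.0575, within 3.07e-07 to 0.0575). Groups of 3 libraries are too small for a search for single outlying samples.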

How the results depend on the processing

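Over the 10 genes, 16 comparisons and all alternatives, 1972 values kept their direction and side of the threshold, 133 no longer passed, 54 newly passed and 1 reversed: BECN1 between untreated lines, at -0.17 with size factors (limma adjusted p = 0.0194, against 0.0109 to 0.0429 over the alternatives). Of the 10 genes, the number passing in HPNE changed most. For residual medium against untreated it was 7, with 2 without the filter, 3 with size factors, 4 from only the 6 libraries, and 2 to 8 on leaving out 1 library. For PANC-1 EV against untreated it was 1, with 0 under a pseudocount of 0.1, no filter, the replicate block, voom or only the 6 libraries, 3 with size factors, and 0 to 1 on leaving out 1 library. Between sources in HPNE it was 3, with 1 without the filter and 0 to 2 on leaving out 1 library. For the line difference after PANC-1 EV it was 3, with 1 under a pseudocount of 0.1, no filter, the replicate block or voom, and 1 to 4 on leaving out 1 library. Leaving out 1 library gave 3 to 7 (PANC-1 EV) and 4 to 8 (PPCL-68 EV) against residual medium in HPNE, 4 to 5 for PPCL-68 EV against untreated in HPNE, 7 to 9 and 8 to 9 against residual medium in HPDE, 7 to 8 and 8 against untreated in HPDE, 6 to 7 between sources in HPDE, 0 to 1 for residual medium in HPDE, and 2 to 3 and 5 to 7 for the line differences after PPCL-68 EV and residual medium. Without the 4 HPNE libraries apart (4 residual degrees of freedom), the HPNE numbers were 9 and 8 against residual medium, 7 and 9 against untreated (PANC-1 EV first) and 6 for the line difference after PANC-1 EV; removing distant libraries shrinks the spread by construction. Other causes were not tested.

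Same-numbered libraries deviated alike for PANC-1 EV against PPCL-68 EV in HPNE, although no label states a pairing. The replicate block ended the GABARAPL1 call there (limma adjusted p = 0.0611, against 0.000222 to 0.144 over the alternatives) and changed no other call of that comparison. Elsewhere same-numbered libraries did not deviate alike for every number (mean correlations from -0.432 to 0.206). The block there lost SQSTM1 for PANC-1 EV against untreated in HPNE, NBR1 between sources in HPDE, and the PANC-1 EV line differences of SQSTM1 and ULK1.

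Over all genes, the number passing moved by over 1.5 times as follows. Without the 4 libraries apart it went from 2784 to 6773 and from 4595 to 7531 for PANC-1 and PPCL-68 EV against residual medium in HPNE, from 2430 to 7192 and from 4891 to 7976 against untreated, from 5052 to 8221 for residual medium, from 629 to 4186 between sources, and from 2622 to 5798, 3183 to 5685 and 4714 to 7678 for the line differences. From only the 6 libraries the first was 1417 and that between sources 319. Without the filter the sources differed in 335 genes, and residual medium in HPDE in 1527 in place of 2443. Leaving out some single libraries moved the HPNE number to 1348, 1388, 1672 or 4444 for PANC-1 EV against residual medium. It moved to 1043 to 1213 for PANC-1 EV against untreated, 3000 to 3180 for residual medium and 133 to 394 between sources. In HPDE it moved to 1427 to 1613 for residual medium, and the line difference after PANC-1 EV moved to 4318. With size factors the higher and lower genes went from 1599 and 1185 to 1341 and 1850 (PANC-1 EV against residual medium, HPNE), from 2153 and 2899 to 3329 and 2085 (residual medium, HPNE), from 1105 and 1325 to 1509 and 1079, and 2151 and 2740 to 2826 and 2296 (PANC-1 and PPCL-68 EV against untreated, HPNE), from 1071 and 1551 to 1423 and 1287, and 2594 and 2120 to 2244 and 2836 (line differences for PANC-1 EV and residual medium), and from 6935 and 3434 to 5398 and 4748 (untreated lines). Voom gave 640 to 10358 genes over the 16 comparisons, against 629 to 10369.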
